A study of Arabidopsis thaliana with 12 samples.

Results

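Transcripts of 10 Arabidopsis thaliana genes of the iron-deficiency response were followed in whole seedlings grown on a bromo- and nitro-substituted indazole, on its singly substituted relatives or on solvent. The genes are the small peptides IMA1 (AT1G47400), IMA2 (AT1G47395) and IMA3 (AT2G30766), the regulators FIT (AT2G28160), BHLH38 (AT3G56970), BHLH39 (AT3G56980), BHLH100 (AT2G41240) and BHLH101 (AT5G04150), and the uptake genes FRO2 (AT1G01580) and IRT1 (AT4G19690). They were picked by locus, as 12 of the 43603 non-control probes of the array, and 9 of the 10 loci, among 23557 loci in all, were bright enough to be tested. IMA1 and IMA3 were already known from these arrays to be among the genes furthest below the solvent level with 3-bromo-7-nitroindazole, so member differences that use those arrays or the solvent arrays are given below as a description. Where such a difference is said to be past or short of limma's threshold, that places it beside the share of all genes and is no test of the member.

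All seedlings were wild type of the accession Col-0 and were harvested whole after 3 days in the cold and dark and 4 days of continuous blue light at 10 µmol per square metre and second. The medium held dimethyl sulfoxide, the solvent (DMSO), 3-bromoindazole (3BRO, without the nitro group), 7-nitroindazole (7NIT, without the bromo group) or 3-bromo-7-nitroindazole (3B7N, with both), and the chemicals were at 2.5 µM. The sources used here do not give the amount of DMSO in the medium. Each of the 4 treatments had 3 single-colour arrays, 12 in all. Whether these came from independently grown cultures is not stated, so p-values measure the scatter of these arrays alone, part of which may be technical.

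Plants that run short of iron make the IMA peptides, which restrain the BTS ubiquitin ligases and so leave more of a set of bHLH activators in place. Those activators switch on BHLH38, BHLH39, BHLH100 and BHLH101, whose proteins pair with FIT, the master regulator of uptake in roots. FIT complexes then activate FRO2, the reductase that turns ferric into ferrous iron at the root surface, and IRT1, the transporter that carries ferrous iron into the root epidermis.

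A level below is the log2 of the processed signal minus the log2 of that array's 75th percentile, so a difference of 1 is a doubling. Levels of different genes come from different probes and are not compared with each other. The 75th percentile itself ran from 1768 to 2205 on the DMSO arrays, from 2366 to 2920 with 3BRO, from 2770 to 3472 with 7NIT and from 3318 to 3761 with 3B7N, and 77.2% to 84.7% of probes per array were marked well above background by the scanner software. The arrays lay on 3 slides scanned on 2 days. Slide 1 held the 3 DMSO arrays and 3BRO replicate 1, slide 2 held 3BRO replicates 2 and 3 with 3B7N replicates 1 and 2, and slide 3 held the 3 7NIT arrays with 3B7N replicate 3. Slide 1 was scanned on a day of its own, so 3B7N and 7NIT never shared a slide or a scan day with DMSO. No slide held both 7NIT and 3BRO arrays. RNA came from whole seedlings, and fewer cells of a type cannot be told apart from less RNA per cell.

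The IMA peptide transcripts were at their lowest mean with 3B7N. IMA3, a peptide that acts as a positive signal for iron uptake, had levels of -1.09, -1.96 and -1.87 on the DMSO arrays, -2.83, -4.65 and -4.95 with 3BRO, -0.75, -3.75 and -2.84 with 7NIT, and -7.97, -5.71 and -8.96 with 3B7N. The 3B7N arrays did not overlap those of any other treatment, the 3BRO arrays lay below all DMSO arrays, and the 7NIT arrays spanned the DMSO range. In processed signal, before any scaling between arrays, IMA3 read 923, 565 and 484 on the DMSO arrays and 13.2, 71.7 and 7.47 on the 3B7N arrays, of which the last was not well above background. The group means were -1.64 ± 0.48 with DMSO, -2.44 ± 1.54 with 7NIT, -4.14 ± 1.15 with 3BRO and -7.55 ± 1.66 with 3B7N (SD, n = 3 arrays each). In that order, DMSO and 7NIT lay closer together than the larger of their SDs, while 7NIT and 3BRO, and 3BRO and 3B7N, lay further apart. The difference of 3B7N from DMSO was -5.91 (SE 0.92, 95% confidence interval -7.93 to -3.89), that of 3BRO from DMSO -2.50 (SE 0.92) and that of 7NIT from DMSO -0.80 (SE 0.92). After normexp background correction of the spot medians they were -3.81, -2.05 and -0.47. The value for 3B7N then lay outside the interval, so its size depends on how background is handled.

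IMA1, which shares its short conserved C-terminus with the other IMA peptides, was near the limit of detection. Its levels were -6.15, -7.15 and -6.31 on the DMSO arrays, -7.93, -9.15 and -8.34 with 3BRO, -6.25, -11.19 and -8.04 with 7NIT, and -10.87, -9.80 and -10.51 with 3B7N. All DMSO arrays lay above all 3BRO and all 3B7N arrays, and the 7NIT arrays ran from the DMSO range to below the 3B7N range. The probe was well above background on 7 of 12 arrays, namely on 3 with DMSO, 2 with 3BRO, 2 with 7NIT and 0 with 3B7N, and it entered the tests only because of the DMSO arrays. On the 3B7N arrays it read 1.77, 4.21 and 2.56, under the dimmest signals marked well above background there, 7.49, 7.44 and 8.25. The difference of 3B7N from DMSO was therefore at least 5.02-fold, against a measured difference of -3.86 (SE 0.95) on the log2 scale. Such a bound sets the DMSO mean against the dimmest signal marked well above background on each 3B7N array. It holds for the scanner software's background correction and is no confidence limit: after normexp background correction of the spot medians the difference was -1.21, below that bound. The 3BRO and 7NIT means were -1.94 and -1.96 from DMSO (SE 0.95 each).

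IMA2, the neighbour of IMA1 on chromosome 1 with 0 genes between them, showed a smaller range. Its levels were -4.13, -5.17 and -4.58 with DMSO, -5.11, -5.97 and -6.01 with 3BRO, -3.81, -6.28 and -5.46 with 7NIT, and -6.70, -5.94 and -6.30 with 3B7N. It was well above background on all 12 arrays. The 3B7N arrays lay below all DMSO arrays but overlapped 3BRO and 7NIT. Its difference from DMSO was -1.69 (SE 0.54) with 3B7N, -1.07 (SE 0.54) with 3BRO and -0.55 (SE 0.54) with 7NIT. IMA2 was the only member in the authors' deposited table for 3B7N against DMSO, with an absolute fold of 3.21 and a corrected p of 0.020, the fold being given there without a direction, and 0 member probes were listed for 7NIT. IMA1 and IMA2 are close copies, so their probes may bind transcripts of both genes and their single values are uncertain.

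**Figure D1:**
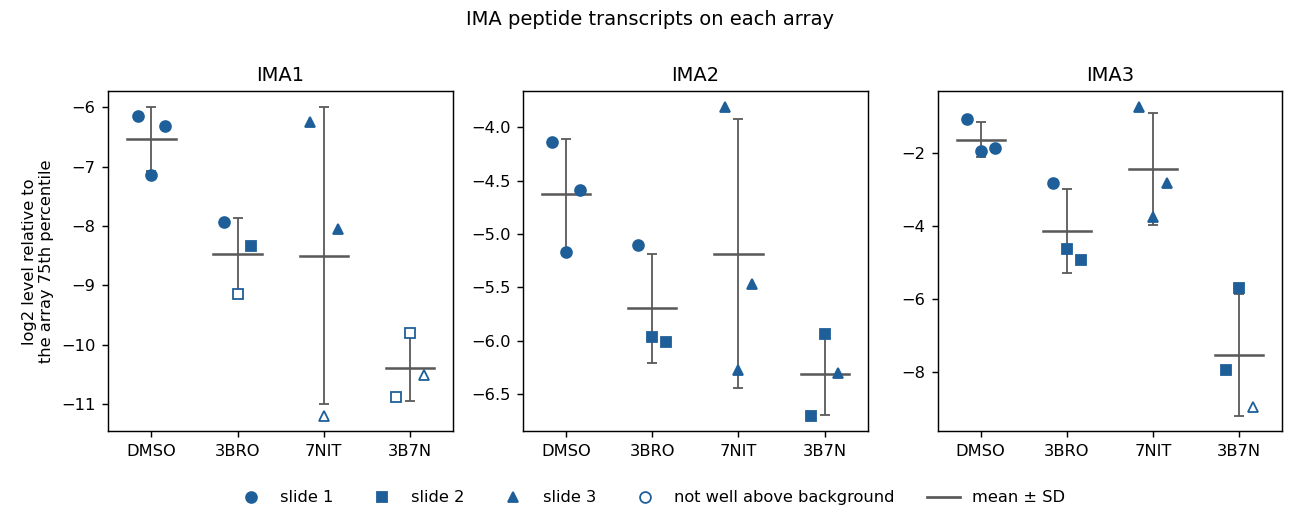
Each point is 1 array, with the log2 level of the IMA1, IMA2 or IMA3 probe relative to the array's 75th percentile on the y axis (each panel has its own range) and the treatment on the x axis; symbols mark slides, open symbols arrays on which the probe was not well above background, and bars the mean ± SD of 3 arrays. IMA3 averages -1.64 with DMSO and -7.55 with 3B7N without overlap, and 7NIT spreads widely for all 3 genes.

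The IMA transcripts varied together from array to array. Over the 12 arrays Pearson's r was 0.93 between IMA1 and IMA2, 0.84 between IMA1 and IMA3 and 0.86 between IMA2 and IMA3, and after each array's treatment mean was taken away it was 0.90, 0.71 and 0.81. These correlations share the same arrays and the same scaling, and those without the treatment means taken away also share the treatments. Within 7NIT, replicate 1 had the highest and replicate 2 the lowest level for all 3 peptides, and replicate 1 was above every DMSO array for IMA2 and IMA3. The 7NIT mean consequently turned on which array was counted: without replicate 1 the differences from DMSO were -3.08 for IMA1, -1.24 for IMA2 and -1.65 for IMA3, and without replicate 2 they were -0.61, -0.01 and -0.15. The 75th percentile of these arrays was 2770 for replicate 1 and 3472 for replicate 2, and its part in the split was not tested.

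FIT, the partner that every uptake complex needs, was well above background on all arrays. FIT levels were -0.63, -0.20 and -0.36 with DMSO, -1.44, 0.00 and -0.34 with 3BRO, -1.31, -1.26 and -0.64 with 7NIT, and -2.85, -1.29 and -0.46 with 3B7N. The 7NIT arrays lay below all DMSO arrays, while 3BRO overlapped DMSO through replicates 2 and 3 and 3B7N through replicate 3. The 3B7N difference from DMSO was -1.14 (SE 0.53), and it was -0.48 without 3B7N replicate 1. The 3BRO and 7NIT differences were -0.20 and -0.67 (SE 0.53 each). Another FIT probe, dimmer and not used to represent the gene, followed the same course (r = 0.98 over 12 arrays) with -1.46, -0.34 and -1.0 for 3B7N, 3BRO and 7NIT against DMSO.

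BHLH38 and BHLH39, which lie side by side on chromosome 3 and encode close copies of a FIT partner, had small differences, and their probes may bind transcripts of both. BHLH38 levels were -7.07, -7.54 and -7.18 with DMSO, -7.57, -8.18 and -7.63 with 3BRO, -7.61, -8.08 and -7.88 with 7NIT, and -7.84, -7.96 and -7.24 with 3B7N. The 3BRO and 7NIT arrays lay below all DMSO arrays, and 3B7N overlapped DMSO through replicate 3. BHLH38 was dim, with processed signals from 10.1 to 24.68. Before scaling it read 14.6, 11.85 and 12.21 with DMSO and 14.46, 15.09 and 24.68 with 3B7N. Differences from DMSO were -0.53 with 3BRO, -0.59 with 7NIT and -0.42 with 3B7N (SE 0.24 each). BHLH39 levels were -5.15, -4.35 and -5.17 with DMSO, -4.90, -4.42 and -4.63 with 3BRO, -5.49, -6.34 and -5.28 with 7NIT, and -5.04, -5.71 and -5.29 with 3B7N. Here the order was 3BRO, DMSO, 3B7N and 7NIT, with neighbours in that order closer than the larger of their SDs, and the 7NIT arrays lay below all DMSO and all 3BRO arrays. Its differences from DMSO were 0.24 with 3BRO, -0.81 with 7NIT and -0.46 with 3B7N (SE 0.31 each).

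BHLH101, a further FIT partner, followed the IMA peptides more closely than the other regulators did, with r = 0.73 to the mean centred IMA profile over 12 arrays against 0.42 for BHLH38, 0.34 for FIT and 0.15 for BHLH39. Its levels were -3.15, -3.22 and -3.71 with DMSO, -3.04, -3.87 and -3.81 with 3BRO, -3.61, -3.97 and -4.01 with 7NIT, and -4.94, -3.61 and -4.20 with 3B7N. Every treatment overlapped DMSO, and the lowest array was 3B7N replicate 1. Differences from DMSO were -0.89 with 3B7N, -0.21 with 3BRO and -0.51 with 7NIT (SE 0.33 each), and that of 3B7N was -0.55 without replicate 1. BHLH100, another gene of the same set, was well above background on 1 array only, DMSO replicate 2, at -7.86, and read between -11.19 and -8.93 on the others. It was not tested, and its order among treatments has no meaning at that signal.

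**Figure D2:**
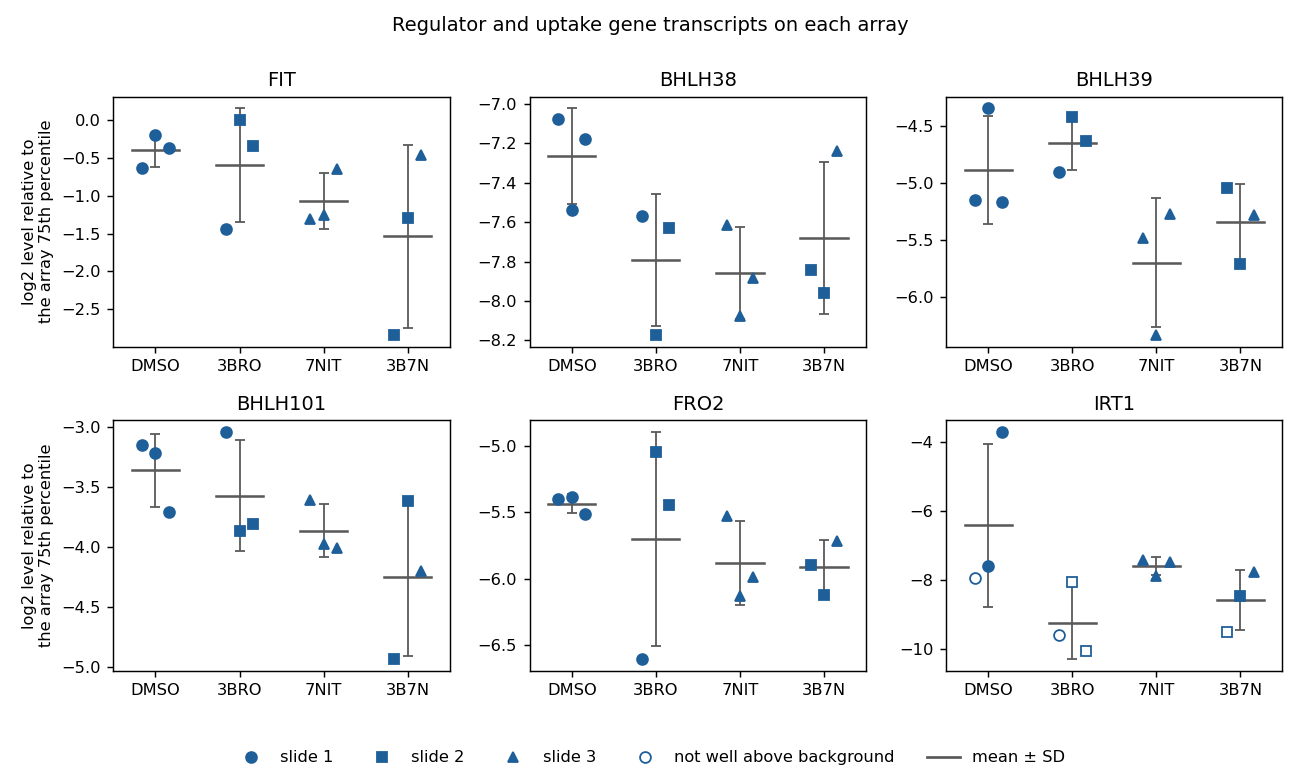
Log2 levels relative to the array's 75th percentile (y axis, own range in each panel) by treatment (x axis) for FIT, BHLH38, BHLH39, BHLH101, FRO2 and IRT1, with 1 point per array, symbols for slides, open symbols where the probe was not well above background, and bars for the mean ± SD of 3 arrays. BHLH101 overlaps DMSO with every chemical, each of the other 5 genes is free of overlap with DMSO for at least 1 chemical, and DMSO replicate 3 stands apart for IRT1 at -3.71.

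The uptake genes gave less clear values. FRO2 levels were -5.40, -5.39 and -5.52 with DMSO, -6.60, -5.05 and -5.45 with 3BRO, -5.53, -6.13 and -5.98 with 7NIT, and -5.89, -6.12 and -5.72 with 3B7N. All 7NIT and all 3B7N arrays lay below the DMSO arrays, whose SD was 0.07, and 3BRO lay on either side of them. In processed signal, before any scaling between arrays, FRO2 read 46.69, 52.68 and 38.65 with DMSO and 55.89, 53.96 and 70.85 with 3B7N. Before scaling the 3B7N arrays thus read above all DMSO arrays. Differences from DMSO were -0.48 with 3B7N, -0.45 with 7NIT and -0.27 with 3BRO (SE 0.33 each), the last being 0.18 without 3BRO replicate 1 and -0.59 without 3BRO replicate 2. Treatments that were neighbours in the order DMSO, 3BRO, 7NIT and 3B7N were closer than the larger of their SDs.

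IRT1 was dim, and its tested probe was well above background on 7 of 12 arrays, passing only through 7NIT. Its levels were -7.95, -7.59 and -3.71 with DMSO, -9.59, -8.05 and -10.06 with 3BRO, -7.41, -7.88 and -7.47 with 7NIT, and -9.50, -8.47 and -7.76 with 3B7N. DMSO replicate 3, at a processed signal of 135.4, stood apart from the other 11 arrays, which read between 2.31 and 17.9. The other IRT1 probe of the array, which did not pass, read 3.49 on that same array, and the probes had r = 0.22 over the 12 arrays. The differences from DMSO were -2.16 with 3B7N, -2.82 with 3BRO (at least 3.51-fold, since 0 of the 3BRO arrays were well above background) and -1.17 with 7NIT, each with an SE of 0.97. Without DMSO replicate 3 they were -0.81, -1.47 and 0.18, so 7NIT then lay above DMSO, and after normexp background correction they were -1.27, -0.90 and -0.07, the value for 3BRO lying below its bound in either case. The bound was carried by DMSO replicate 3, and DMSO replicate 1 was itself not well above background.

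Read as counts, the 9 tested members lay below DMSO on average in 9 cases with 3B7N, 9 with 7NIT and 8 with 3BRO, with medians of -1.14, -0.67 and -0.53, beside medians over all genes tested of -0.02, 0.03 and -0.02. These comparisons share the DMSO arrays. After normexp background correction FRO2, BHLH38, IMA1 and IMA2 lay above DMSO with 7NIT, at 0.29, 0.34, 0.22 and 0.16, and BHLH39 lay below it with 3BRO, at -0.04, while with 3B7N no member turned. The 3 treated arrays all lay below the 3 DMSO arrays for 4 members with 3B7N (IMA1, IMA2, IMA3 and FRO2), where 19.5% of all genes did so. The same held for 4 members with 3BRO (IMA1, IMA3, IRT1 and BHLH38) beside 5.78% of all genes, and for 4 with 7NIT (FRO2, FIT, BHLH38 and BHLH39) beside 8.04%. Past limma's adjusted threshold of 0.05, 2 members were lower with 3B7N than with DMSO, IMA1 and IMA3, and 0 higher, in a comparison that called 10.2% of all genes lower and 5.5% higher. With 3BRO and with 7NIT against DMSO 0 members passed, where 0.00425% and 0.0255% of genes passed in either direction. IMA1 and IMA3 were chosen with these values known, and IMA1 was admitted only through DMSO, where it was highest, so nothing is read from the counts. The call of IMA1 was absent without DMSO replicate 1, DMSO replicate 3, 3B7N replicate 1 or 3B7N replicate 3, while IMA3 passed without any single array.

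**Figure D3:**
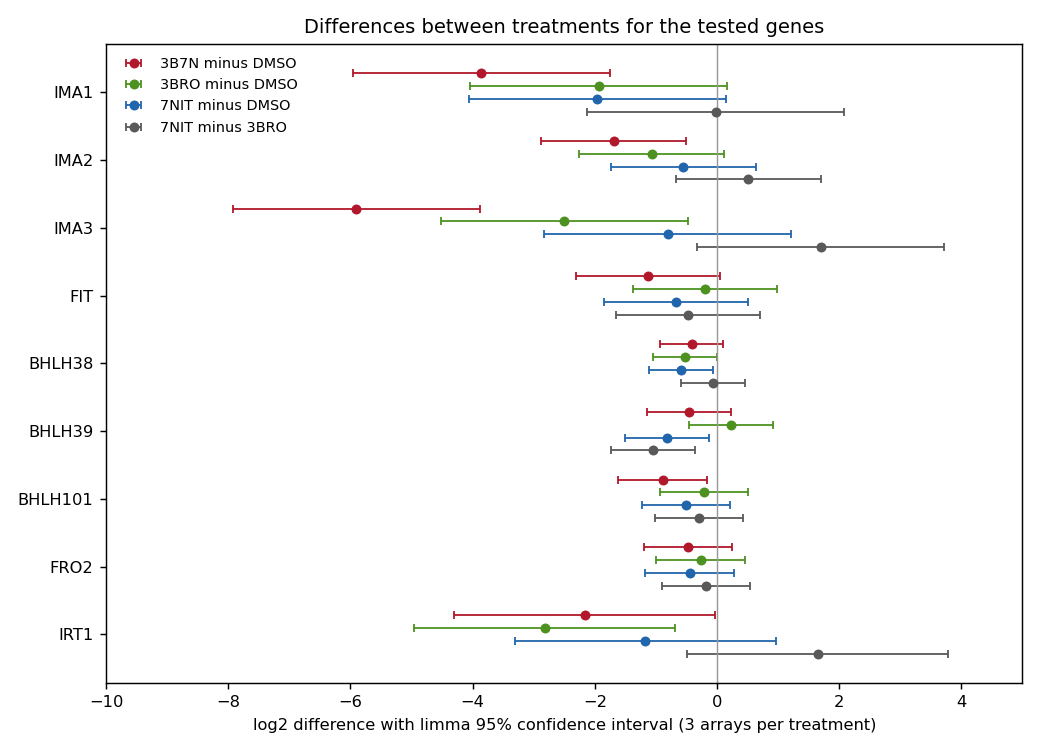
For each tested gene (y axis) the log2 difference between treatment means (x axis) is shown with limma's 95% confidence interval, from 12 arrays with 3 per treatment; colours mark 3B7N, 3BRO and 7NIT minus DMSO, and grey marks 7NIT minus 3BRO. IMA3 has the lowest value, -5.91 for 3B7N minus DMSO, and all grey intervals but that of BHLH39 reach across 0.

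The comparison of the related compounds addressed which substituent went with a lower level. Of 6 pairs of treatments, only 7NIT against 3BRO uses neither 3B7N nor DMSO arrays, and it was tested with limma, adjusted over all genes. The genes were chosen with earlier results of these data known, so the 7NIT and 3BRO arrays may have had a part in the choice. No member passed (0 of 9 with IRT1 counted), in a comparison that called 0.0212% of all genes. BHLH39 was lower with 7NIT than with 3BRO by -1.05 (95% confidence interval -1.74 to -0.36, limma adjusted p = 0.42), with all 3 arrays below. IMA3 was higher with 7NIT by 1.70 (interval -0.32 to 3.72, limma adjusted p = 0.59), with overlapping arrays. IRT1 read 1.65 higher with 7NIT (interval -0.49 to 3.79), but its probe was admitted only through the 7NIT arrays and none of the 3BRO arrays was well above background, so this value is given without a test. IMA1 and IMA2 differed by -0.02 (interval -2.12 to 2.08) and 0.51 (interval -0.67 to 1.70), and FIT, BHLH101, FRO2 and BHLH38 by -0.48 (interval -1.66 to 0.70), -0.29 (-1.02 to 0.43), -0.18 (-0.90 to 0.55) and -0.07 (-0.59 to 0.45). The share of all genes whose 7NIT arrays all lay below the 3BRO arrays, as those of BHLH39 did, was 5.52%. No slide held arrays of both compounds, and only 3BRO replicates 2 and 3 shared the scan day of 7NIT. With slide as a block IMA3 was at 4.48, FIT at -2.51, BHLH39 at -1.27 and IRT1 at 0.25, and no member passed. The interval of IMA1 reaches past -2 and 2 on the log2 scale, and the absence of a call does not show that the compounds without the bromo or without the nitro group act alike.

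Against the singly substituted compounds, 3B7N had the lower IMA3 level, by -3.40 (SE 0.92) from 3BRO and by -5.10 (SE 0.92) from 7NIT, and the arrays did not overlap in either comparison, as held for lower values of 14% and 24.6% of all genes. After normexp background correction those IMA3 differences were -1.76 and -3.34. IMA1 differed by -1.92 from 3BRO and by -1.90 from 7NIT (SE 0.95 each), and IMA2 by -0.62 and -1.13 (SE 0.54 each), with overlapping arrays except for IMA1 against 3BRO. For IMA1 1 3BRO array and 1 7NIT array were not well above background either, and without 7NIT replicate 1 its difference from 7NIT was -0.78. IMA3 was the only member past the threshold in each comparison, where 4.79% and 12.5% of all genes passed as lower, but it was chosen for its low 3B7N values and nothing is read from this. Its place past the threshold against 3BRO was present without 7NIT replicate 1, 7NIT replicate 2 or 3B7N replicate 2 and absent without any of the other 9 arrays. With slide as a block IMA3 was at -2.04 against 3BRO and did not pass, and FIT, at -1.90, was the member past the threshold. Set against the sum of the changes with 3BRO and with 7NIT, IMA3 with 3B7N differed by a further -2.60 (SE 1.29), and IMA1 and IMA2 differed from that sum by 0.04 (SE 1.35) and -0.06 (SE 0.76). These departures from the sum are given as a description.

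Mean differences between arrays of the same slide kept the direction of the IMA values and changed their size. On slide 1, 3BRO replicate 1 was below the mean of the DMSO arrays by -1.19 for IMA3, -1.40 for IMA1 and -0.48 for IMA2. On slide 2, the 3B7N mean was below the 3BRO mean by -2.04 for IMA3, -1.59 for IMA1 and -0.33 for IMA2. For IMA2, 3B7N replicate 2, at -5.94, lay above both 3BRO arrays of that slide, at -5.97 and -6.01. On slide 3, 3B7N replicate 3 was below the mean of the 7NIT arrays by -6.52, -2.01 and -1.12. The arrays overlapped for IMA2 on slides 1 and 2 and for IMA1 on slide 3. FIT did not keep its direction: both 3B7N arrays of slide 2 were below both 3BRO arrays, by -1.90 on average, whereas 3B7N replicate 3 was above all 3 7NIT arrays of slide 3, by 0.61 from their mean. FRO2 was lower on slide 1 with 3BRO (-1.17) and on slide 2 with 3B7N (-0.76), and 0.16 higher on slide 3.

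**Figure D4:**
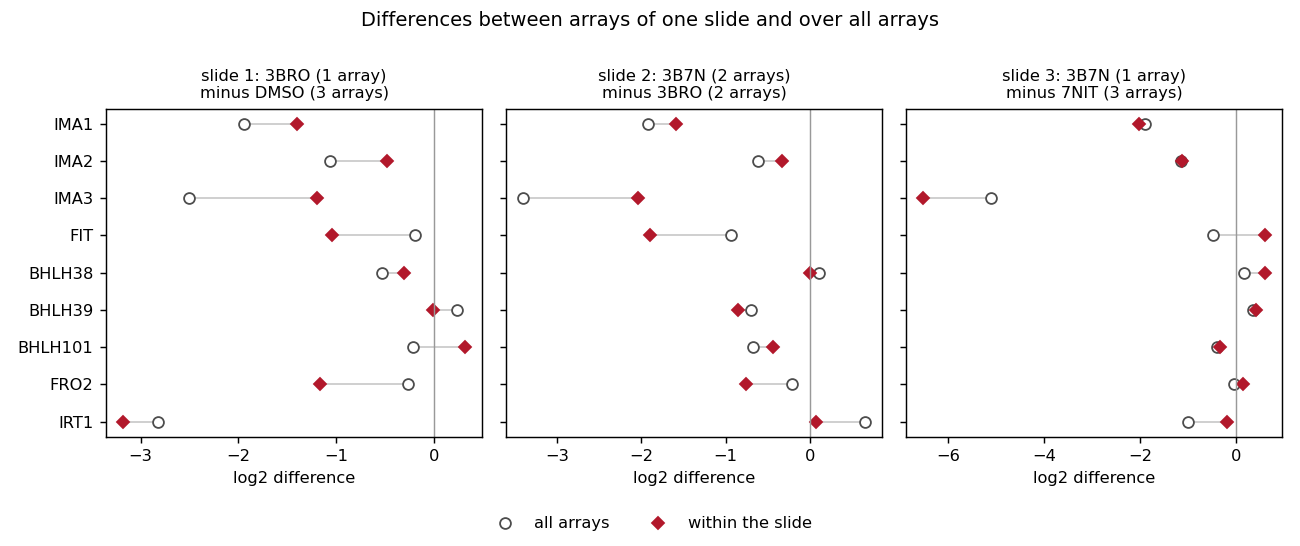
For each tested gene (y axis), filled diamonds show the log2 difference (x axis) between the arrays of 1 slide and open circles the same contrast over all arrays; the panels are 3BRO minus DMSO on slide 1, 3B7N minus 3BRO on slide 2 and 3B7N minus 7NIT on slide 3. IMA1, IMA2 and IMA3 stay below 0 in all panels, and FIT lies at -1.90 on slide 2 and at 0.61 on slide 3.

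With slide as a block in the fit, where 3B7N and DMSO are linked only through 3BRO, the 3B7N difference from DMSO was -3.23 for IMA3, -2.99 for IMA1 and -0.81 for IMA2, and neither IMA1 nor IMA3 passed. FRO2, at -1.93, was then the only member past the threshold, in a fit that called 3.27% of all genes, and FIT was at -2.95. The only array on slide 1 and its scan day other than DMSO was 3BRO replicate 1. Values against DMSO with slide or scan day as a block therefore rest on that array. Its FRO2 level, -6.60, was the lowest of all 12 arrays, and its FIT level, -1.44, the lowest with 3BRO. For 7NIT against DMSO, which has no link but through 3BRO and 3B7N, the same block turned IMA3 to 3.28, IMA2 to 0.31 and BHLH101 to 0.22, and for 3BRO against DMSO it turned BHLH101 to 0.32 and BHLH39 to -0.01. The treatment and the slide or scan day are thus told apart for 3B7N and DMSO only by way of the other chemicals.

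Other genes of iron handling were read from a list of 61 by role, of which 58 were tested. This list and the marker lists below were drawn up with earlier results of these data known, so their p-values are a description. With 3B7N 11 of the 58 fell and 3 rose past limma's adjusted threshold, beside 10.2% of all genes lower and 5.5% higher, and the median difference was -0.14. The ferric and cupric reductases made up 4 of those that fell, out of 7 tested. FRO6, a reductase of leaf cells, fell by 2.49 (SE 0.36, limma adjusted p = 0.0015) and FRO7, the reductase of chloroplasts, fell by 2.64 (SE 0.40, limma adjusted p = 0.0022). FRO6 stood at 3.02, 3.15 and 3.37 with DMSO and at -0.26, 1.22 and 1.11 with 3B7N. FRO4 fell by 4.91 (SE 0.68, limma adjusted p = 0.0012) and FRO5 fell by 3.12 (SE 0.35, limma adjusted p = 0.00050), the latter at least 2.51-fold, both being reductases of roots that also serve copper uptake. FRO4 was dim with 3B7N, at processed signals of 3.14, 10.57 and 20.15, the first not well above background. The FRO5 probe was well above background on the 3 DMSO arrays and on 1 3BRO array only, so it was tested solely through the group in which it was highest. Its p-values here and below are therefore not read as a test. FRO6 and FRO7, and FRO4 and FRO5, are close copies whose probes may bind transcripts of both.

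Of 23 transporters and pumps, 3 fell (13%) and 1 rose (4.35%) with 3B7N, near the 10.2% and 5.5% of all genes. YSL2, a carrier of metals bound to nicotianamine, fell by 2.53 (SE 0.30, limma adjusted p = 0.00065), OPT3, which loads iron into the phloem, fell by 0.80 (SE 0.17, limma adjusted p = 0.011) and MIT1, which brings iron into mitochondria, fell by 0.51 (SE 0.14, limma adjusted p = 0.033). VIT1, which stores iron in the vacuole, rose by 2.94 (SE 0.36, limma adjusted p = 0.00074), from -7.71, -7.86 and -8.55 with DMSO to -5.95, -4.63 and -4.70 with 3B7N. Its DMSO arrays were dim, with processed signals of 9.39, 9.51 and 4.72, the last not well above background. The VIT1 probe was thus admitted only through the chemicals, where its mean was higher. IRT2, the transporter most like IRT1, was at -1.05 (SE 0.61, limma adjusted p = 0.26), and FER1, a plastid iron store and 1 of 4 ferritins, rose by 0.71 (SE 0.18, limma adjusted p = 0.020).

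Among 8 genes of coumarin and nicotianamine synthesis, 3 fell with 3B7N (37.5%, beside 10.2% of all genes). F6'H1 and F6'H2, enzymes on the way to the coumarins that roots release to mobilise iron, fell by 1.08 (SE 0.26, limma adjusted p = 0.018) and fell by 2.08 (SE 0.38, limma adjusted p = 0.0048), and NAS4, a nicotianamine synthase, fell by 2.02 (SE 0.27, limma adjusted p = 0.0011). Of 16 regulators outside the member list 1 fell and 1 rose (6.25% each), beside 10.2% of all genes lower and 5.5% higher. The regulator bHLH34, an activator of the BHLH38 group, fell by 0.85 (SE 0.23, limma adjusted p = 0.034), and MYB10, which acts under iron shortage, rose by 2.23 (SE 0.24, limma adjusted p = 0.00039). PYE, a further regulator of iron homeostasis, was at -0.60 (SE 0.33, limma adjusted p = 0.23), and BTS, the ligase that the IMA peptides restrain, at -0.19 (SE 0.12, limma adjusted p = 0.29).

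With 7NIT against DMSO 1 of the 58 genes fell, FRO5, which fell by 3.23 (SE 0.35, limma adjusted p = 0.016), at least 1.97-fold, where 0.00849% of all genes were called lower. That probe was admitted through DMSO, the higher group, and 0 of the 7NIT arrays were well above background. The call was absent (0 genes) when any single DMSO or 7NIT array was left out and with slide as a block (-3.66, limma adjusted p = 0.060), and the value was 0.21 after normexp. FRO4 at -3.56 (limma adjusted p = 0.19) and YSL2 at -1.97 (limma adjusted p = 0.082) did not pass with 7NIT, although their 7NIT arrays all lay below the DMSO arrays. In the authors' deposited table YSL2 was listed for 7NIT against DMSO, with an absolute fold of 3.91 and a corrected p of 0.013. With 3BRO 0 of 58 passed, where 0.00425% of all genes passed in either direction.

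Of the 14 genes called with 3B7N, 6 passed after normexp background correction (FRO6, FRO7, OPT3, YSL2 and NAS4 lower, FER1 higher) and 5 passed with slide as a block (FRO4, FRO5, F6'H1 and F6'H2 lower, MYB10 higher), so 0 passed under both, though all 14 kept their direction under each. FRO4 was at -2.26 after normexp and -7.38 with the slide block, and VIT1 at 0.41 and 2.07.

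**Figure D5:**
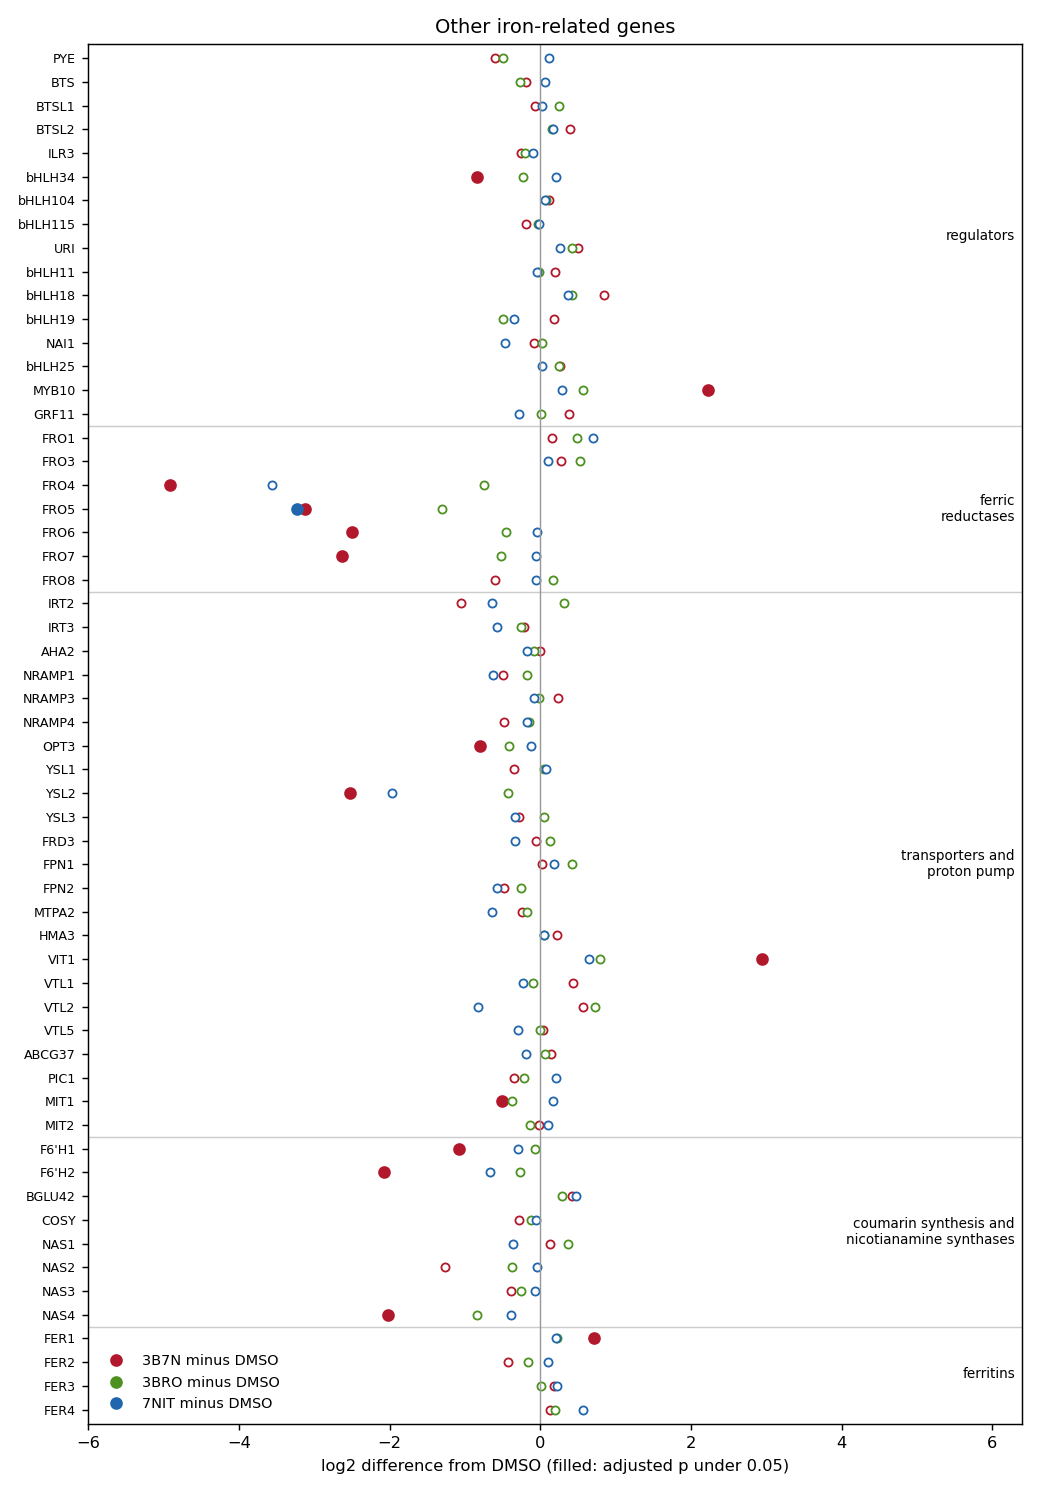
Log2 difference from DMSO (x axis) of the 58 other iron-related genes tested (y axis, grouped by role), for 3B7N, 3BRO and 7NIT with 3 arrays each; filled points passed limma's adjusted threshold of 0.05. FRO4 at -4.91 and VIT1 at 2.94 mark the ends for 3B7N, and FRO5 is the only filled point for 7NIT.

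Since iron uptake genes act mainly in roots, root and root hair markers were set beside them. All 15 markers were well above background on every array. Their summed level, on the same log2 scale, ran from 6.94 to 7.23 on the DMSO arrays, from 6.85 to 7.03 with 3BRO, from 6.68 to 6.86 with 7NIT and from 6.50 to 6.73 with 3B7N. With 3B7N 5 of the 15 fell past limma's adjusted threshold and 1 rose, with a median of -0.46: the root hair genes PRP3 at -1.81 (SE 0.51, limma adjusted p = 0.036), EXPA18 at -1.74 (SE 0.38, limma adjusted p = 0.012) and COBL9 at -1.19 (SE 0.34, limma adjusted p = 0.040), and, chosen for mention after their values were seen, PYK10 and SCR lower and THAS1 higher. The count of 5 was 1 without DMSO replicate 1, DMSO replicate 3 or 3B7N replicate 2, it was 2 without DMSO replicate 2 or 3B7N replicate 1, and 3 without 3B7N replicate 3 or 7NIT replicate 2. The rise of THAS1 was absent without any single array other than DMSO replicate 1, 3BRO replicate 1 or 3BRO replicate 3. The defining markers of green shoot tissue, 7 in the list, were also lower in 5 cases with 3B7N (RBCS1A, CAB1, RCA, FBA2 and LHCA1, named after their values were seen), and the summed level of the 6 with a value on every array ran from 9.54 to 10.03 with DMSO and from 8.98 to 9.27 with 3B7N. Both summed levels reached lowest with 3B7N, in a comparison that called 10.2% of all genes lower, but 4 root markers and 1 shoot marker lay above DMSO. The medians of -0.46 and -0.61 were smaller in size than the difference of any IMA transcript. Single root markers reached further, with PRP3 at -1.81 and EXPA18 at -1.74 beside -1.69 for IMA2. The summed root level ran lower with 7NIT than with 3BRO, where IMA1, IMA2 and IMA3 differed by -0.02, 0.51 and 1.70. The part of these marker levels in the IMA values was not tested.

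The genes outside the list whose levels most resembled the mean centred profile of IMA1, IMA2 and IMA3 were AT5G05250, AT1G52342, DGAT3, AT2G37100, GME, AT1G79220, CLE26, AT5G54095, AT3G60080 and AT5G43260. DGAT3 makes storage lipid, GME is an epimerase of vitamin C synthesis and CLE26 encodes a signalling peptide. Pearson's r over the 12 arrays ran from 0.925 for AT5G43260 to 0.942 for AT5G05250, as a description of points that share treatments, arrays and scaling. Each was lower with 3B7N than with DMSO, by -0.45 for AT3G60080 to -1.27 for AT2G37100, a smaller difference than that of any IMA transcript. Among the members, IRT1 and FRO2 had r of 0.44 and 0.25 with the same profile.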

How the data were processed

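Intensity values were deposited by the authors as scanner output of 12 single-colour Agilent arrays, and the submitters' processing notes name the software as Agilent Feature Extraction 10.7.3.1. The processed signal is background-subtracted and not scaled between arrays, per the file headers. The flags for background, saturation and outlier spots come from the same deposited files. The authors' deposited table gives absolute fold values without a direction and corrected p-values, of which the sources used here do not name the correction. In 1 file, that of 3BRO replicate 2, the deposited signals carry only 3 significant digits.

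Levels are log2 processed signals less the array's own 75th percentile, after removal of controls and of spots with outlier flags and averaging of repeated spots. Testing required a probe to be well above background on every array of some treatment (35747 of 43603 probes), and the brightest passing probe stood for a gene. Limma 3.58.1 in R 4.3.3 was fitted to all 12 arrays with a coefficient for each treatment, with Benjamini-Hochberg adjustment over all genes in each of 7 contrasts at 0.05. The code was tested on simulated data.

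Members and lists were chosen with earlier results of these data known, so members have p-values only for 7NIT against 3BRO, and other mentions of the threshold for members are descriptive. The limma adjusted p-values of the other iron genes and of the markers are descriptive as well. Named genes were all members, the 10 genes most like the IMA profile, up to 4 called genes per subgroup of iron genes and up to 3 markers. PYE, BTS and IRT2, the 7NIT values of FRO4 and YSL2 and the setting values of FRO4 and VIT1 were chosen for mention after they were seen. Symbols came from a RefSeq table (assembly TAIR10.1, which held 23306 of the 23557 loci and lists the IMA genes by locus and FIT as FRU). It served for names, chromosomes and neighbours only, since the files carry an older annotation, so no coordinates are given.

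Alternatives were normexp background correction with an offset of 50 (on spot medians, since the files used here hold no spot means), quantile normalisation, no filter on dim probes, the mean of a gene's probes, outlier spots kept, slide, scan day or replicate number as a block, and each array left out. Same-numbered arrays of different treatments did not all deviate together: over 18 pairs the correlation of deviations from the treatment means ran from -0.16 to 0.44, with 11 above 0.1. All pairs below 0 held a 3B7N array, so these values do not show that same-numbered arrays are unrelated. The main fit took no pairs. With the replicate number as a block 4332 genes passed for 3B7N against DMSO, against 3699 in the main fit. The cry1cry2 genotype that the design text names was not analysed here. The number of arrays limits the precision.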

Additional observations from a re-analysis of the deposited data

How the results depend on the processing

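After normexp background correction, which moved the median of all genes by -0.13 for 3B7N against DMSO, 1 member was below DMSO with 3B7N (IMA3) and 0 below 3BRO, 5 other iron genes fell and 1 rose, 0 fell with 7NIT, and 1 root marker fell and 0 rose. For 7NIT against 3BRO it turned FRO2 to 0.59, BHLH38 to 0.74, BHLH101 to 0.14 and IMA1 to 0.84, and for 7NIT against DMSO it turned 4 members. Quantile normalisation gave 0 members for 3B7N against 3BRO and 3 lower root markers, and it turned IMA1 to 0.11 for 7NIT against 3BRO. Without the filter on dim probes the member count for 3B7N against 3BRO was 0 and 0 root markers rose, and with the mean of a gene's probes 3 root markers fell. With slide as a block 1 member was below DMSO with 3B7N (FRO2) and 1 was below 3BRO (FIT in place of IMA3). In that fit 4 other iron genes fell and 1 rose, 0 fell with 7NIT and 0 root markers rose. For 7NIT against 3BRO that block turned IMA1 to 0.42. With scan day as a block 1 member was below DMSO with 3B7N (FRO2) and 0 below 3BRO, 4 other iron genes fell and 1 rose, and 0 root markers rose. For 7NIT against 3BRO that block turned BHLH38 and IMA1 to 0.044 and 0.25. With the replicate number as a block 3 members were below DMSO with 3B7N (IMA1, IMA2 and IMA3), 2 other iron genes fell with 7NIT and 0 root markers rose. Among the alternatives that keep all arrays, keeping the outlier spots moved no count past 1.5 times.

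Leaving out each array in turn, members below DMSO with 3B7N numbered 1 to 3, below 3BRO 0 to 1 and below 7NIT 1 to 3. IMA2 joined them without 7NIT replicate 1 or 2, and BHLH101 without 3B7N replicate 2. The other iron genes that fell with 7NIT numbered 0 to 2, the highest count being without 3B7N replicate 1, and root markers that fell and rose with 3B7N 1 to 7 and 0 to 1. The 7NIT against 3BRO differences that turned ran from -0.26 to 0.044 for BHLH38, -0.63 to 0.15 for FRO2, -1.14 to 1.33 for IMA1 and -0.17 to 1.06 for IMA2. No member passed for 7NIT against 3BRO under any of the 20 alternatives (limma adjusted p from 0.26 to 0.97 for BHLH39). Dim signal limits IMA1, IRT1 and BHLH100, whose values lie near background on several arrays. It also limits BHLH38, which was well above background on all arrays but read only between 10.1 and 24.68.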
